A study of Homo sapiens with 6 samples.

Results

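The integrin and laminin subunits were taken by gene symbol alone from the gene table of an RNA-Seq experiment on BT549 cells. Of 58735 genes, 38 had a symbol of the form ITGA, ITGB, LAMA, LAMB or LAMC followed by a chain number or letter. They comprised 18 integrin α subunits, 8 integrin β subunits, 5 laminin α chains, 4 laminin β chains and 3 laminin γ chains. The rule itself used no expression value, though the families were picked with earlier results of these data known.

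BT549, an established cell line, came from a basal-like breast tumour. Cells were plated and given either the solvent DMSO or AS1842856, a small molecule that binds FOXO1 and hinders its binding to DNA, and total RNA was taken after 48 h. There were 6 libraries, DMSO A, B and C and AS1842856 A, B and C, which the study describes as biological replicates. The labels give a concentration of 200 nM for AS1842856 and the study's methods give a higher one, so the dose is uncertain. The libraries held 22050288, 15289500 and 18580205 counts for DMSO A, B and C, and 16643243, 22981832 and 17888328 counts for AS1842856 A, B and C. All libraries came from 1 line, and levels of RNA say nothing of protein, assembly or secretion.

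Laminins are large secreted trimers of an α, a β and a γ chain that build the sheet-like network of basement membranes. The α chain carries the globular end to which cells attach, and it distinguishes most laminin isoforms. Integrins are the receptors on the cell side. Each is a pair of an α and a β subunit, where the pair sets which ligand is bound, and the β tail recruits talin, kindlins and other adaptors that join the receptor to actin. In breast epithelium the laminin receptors hold cells on the basement membrane, and in basal-like and mesenchymal-like cells integrins also carry migration on fibronectin and other matrix.

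The upstream sequences of 2 laminin α genes are shown because the pair moved in opposite directions, LAMA2 up and LAMA5 down, as described further on. Both are 250 bases ending at the RefSeq transcription start, 5′ to 3′ on the strand of the gene (RefSeq table, GRCh38.p14). The LAMA2 window lies at chr6:128882888-128883137 on the plus strand and the LAMA5 window at chr20:62367313-62367562 on the minus strand, and neither overlaps an exon of its gene in GENCODE 29. There are no capitals in either, since capitals mark a motif match and none was found.
LAMA2: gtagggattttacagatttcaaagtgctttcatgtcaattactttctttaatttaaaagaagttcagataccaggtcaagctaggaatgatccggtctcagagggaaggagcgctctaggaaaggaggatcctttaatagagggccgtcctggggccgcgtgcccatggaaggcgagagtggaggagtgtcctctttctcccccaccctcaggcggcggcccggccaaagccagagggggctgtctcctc
LAMA5: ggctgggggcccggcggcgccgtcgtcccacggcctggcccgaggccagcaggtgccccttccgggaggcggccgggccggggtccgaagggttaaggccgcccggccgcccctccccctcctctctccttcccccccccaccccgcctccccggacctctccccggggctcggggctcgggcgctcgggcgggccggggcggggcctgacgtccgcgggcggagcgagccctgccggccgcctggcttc

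The LAMA2 window was 53.2% G and C with 9 CpG dinucleotides, near the median of 58.0% over all 35116 windows of the table, and the LAMA5 window was 82.8% G and C with 32 CpG dinucleotides. The table held such a window for 26 of the 38 subunits, 19 of them among those tested. Each 250-base window was searched on both strands for the forkhead letters GTAAACA, the TCF/LEF letters CTTTGAT and the AP-1 letters TGANTCA, which read the same on both strands. These were present in 2.98%, 2.26% and 6.57% of all windows, respectively. None of the 26 windows of the family held the forkhead or the TCF/LEF letters. Only LAMA3, which fell, held the AP-1 letters, and it held them at 2 places, 125 to 119 bases and 69 to 63 bases before the start. The sites are given with 10 bases on either side and the match in capitals, from chr18:23872885-23872911 and chr18:23872941-23872967 on the plus strand.
LAMA3 first site: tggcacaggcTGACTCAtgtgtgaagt
LAMA3 second site: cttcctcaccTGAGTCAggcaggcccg
That start lies 183577 bases into the annotated gene, and both matches fall inside an exon that GENCODE gives to another LAMA3 transcript. A match is a run of letters and not a site of binding, and the absence of a match says only that those letters are not in that window.

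The question of the comparison was which genes change when FOXO1 is bound by AS1842856. Counts were compared between groups by edgeR's quasi-likelihood test, with p-values adjusted by the Benjamini-Hochberg method over all 14338 genes that passed the filter on low counts, and a gene was called at an adjusted p under 0.05. Levels of 1 gene across libraries are given as CPM (counts scaled to a common library size) after TMM normalization, which also corrects for composition. Fold changes are on the log2 scale, AS1842856 over DMSO, with their standard errors. With 3 libraries a group, no exact permutation test on 1 gene can reach a two-sided p below 0.1, so calls rest on the fit across genes.

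Of the 38 subunits, 24 passed the filter, 15 integrin subunits and 9 laminin chains. AS1842856 lowered 15 of the 24 and raised 3, and 6 were not called. Over all genes tested 56.0% were called, 27.6% higher and 28.4% lower with AS1842856, so many genes of any kind changed, and the 75.0% of tested subunits called is to be read against that. In CPM, the groups did not overlap for 19 subunits, 15 of them lower and 4 higher, against 59.9% of all genes tested. A called fall of 1 or more log2 units was seen for 7 subunits (6.33% of all genes tested) and a called rise of 1 or more for 2 subunits (4.27% of all genes tested). ITGA7 and LAMB3, both among the higher subunits without overlap, passed the filter only through their AS1842856 libraries. ITGA7 is also among the called rises. The median log2 fold change was -0.57 for the 24 subunits and 0.00 for all genes tested. In RNA from whole cultures, fewer cells with a transcript and less transcript in each cell cannot be told apart.

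**Figure D1:**
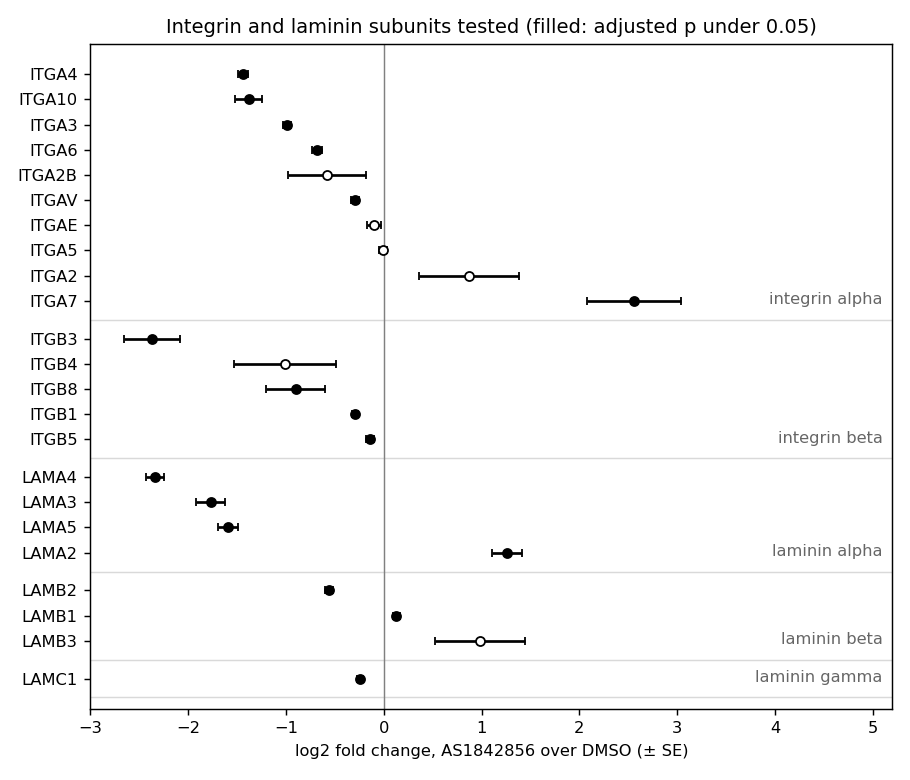
Log2 fold change (AS1842856 over DMSO, horizontal axis) with its standard error for tested integrin and laminin subunits, grouped by chain class. Filled points are called (edgeR, adjusted p below 0.05). Of these, ITGB3, LAMA4 and LAMA3 lie furthest to the left, at -2.37, -2.34 and -1.77, and ITGA7 and LAMA2 are the called subunits furthest to the right, at 2.56 and 1.26.

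The 14 subunits that did not pass the filter were ITGA1, ITGA8, ITGA9, ITGA11, ITGAD, ITGAL, ITGAM, ITGAX, ITGB2, ITGB6, ITGB7, LAMA1, LAMB4 and LAMC3. ITGA8, ITGAD, ITGAX and LAMA1 had 0 counts in every library. ITGB2, the β subunit shared by leukocyte integrins, had 3, 2 and 4 counts in DMSO A, B and C and 0 in each AS1842856 library. Of ITGAD, ITGAE, ITGAL, ITGAM, ITGAX, ITGB2 and ITGB7, the subunits listed as those of leukocytes, ITGAE alone was tested, and it was not called; ITGA4, also found on leukocytes, was not in that list and is described further on.

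Among the ligands, the α chains of laminin moved most. LAMA3, LAMA4 and LAMA5 fell and LAMA2 rose, and LAMA1 was not detected. LAMA4 (chr6:112108760-112254939), the α chain of vessel wall and mesenchymal basement membranes, had 45.6, 43.1 and 41.8 CPM in DMSO A, B and C and 8.64, 7.97 and 9.37 CPM in AS1842856 A, B and C. The groups lay far apart with little spread inside each. LAMA4 was 5.05-fold lower (log2 fold change -2.34 ± 0.09 SE, edgeR adjusted p = 3.28e-73).

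LAMA5 (chr20:62307955-62367312), the α chain of most adult epithelial basement membranes, had 28.8, 26.0 and 25.3 CPM in the DMSO libraries and 8.40, 8.98 and 9.31 CPM in the AS1842856 libraries. LAMA5 fell by 1.59 on the log2 scale (SE 0.10, edgeR adjusted p = 2.54e-39), with no overlap. LAMA3 (chr18:23689443-23956222), the α chain of the laminin that anchors epithelia through hemidesmosomes, had 11.2, 9.90 and 12.2 CPM with DMSO and 2.94, 3.59 and 3.20 CPM with AS1842856. It was 3.40-fold lower (-1.77 ± 0.15, edgeR adjusted p = 3.31e-25), again with every treated library below every control. LAMA5 shares 1.71% of its exon bases with ADRM1 on the other strand, which had 644% as many counts and a log2 fold change of 0.01 (edgeR adjusted p = 0.847).

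LAMA2 (chr6:128883141-129516569) went the other way. It encodes the α chain of muscle and peripheral nerve laminin, whose loss causes a congenital muscular dystrophy. Its level was 4.10, 4.36 and 3.55 CPM in the DMSO libraries and 9.72, 9.15 and 9.98 CPM in the AS1842856 libraries. All treated libraries were above all controls, and LAMA2 was 2.40-fold higher (1.26 ± 0.15, edgeR adjusted p = 6.58e-15). The muscle markers DES, MYOD1, MYOG and ACTA1 summed to at most 0.219 CPM in any library, and MYOD1 and MYOG had no count.

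LAMB1, LAMB2 and LAMC1, the β and γ chains that partner most α chains, had smaller log2 fold changes. LAMB1, the commonest β chain here, had 408, 403 and 384 CPM with DMSO and 411, 458 and 437 CPM with AS1842856. Its groups were separate but close, and the rise was 0.13 ± 0.04 (edgeR adjusted p = 0.000753). It was not called without AS1842856 replicate B, where it was 0.09 (edgeR adjusted p = 0.0596). LAMB2, the β chain of neuromuscular and kidney basement membranes, had 168, 172 and 175 CPM with DMSO and 114, 114 and 120.2 CPM with AS1842856. It fell by 0.56 on the log2 scale (SE 0.04, edgeR adjusted p = 2.51e-31) without overlap. LAMC1, the γ chain of most laminins, had 546, 552 and 510.1 CPM with DMSO and 449, 470.5 and 445 CPM with AS1842856. It fell by 0.24 (SE 0.03, edgeR adjusted p = 2.73e-10).

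LAMB3, the β chain that joins LAMA3 in the hemidesmosomal laminin, had 0.455, 0.391 and 0.377 CPM with DMSO and 0.840, 0.920 and 0.673 CPM with AS1842856, from 6 to 21 counts a library. Those groups did not overlap, but LAMB3 was not called (0.98 ± 0.46, edgeR adjusted p = 0.0605). It passed the filter only through its AS1842856 libraries.

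**Figure D2:**
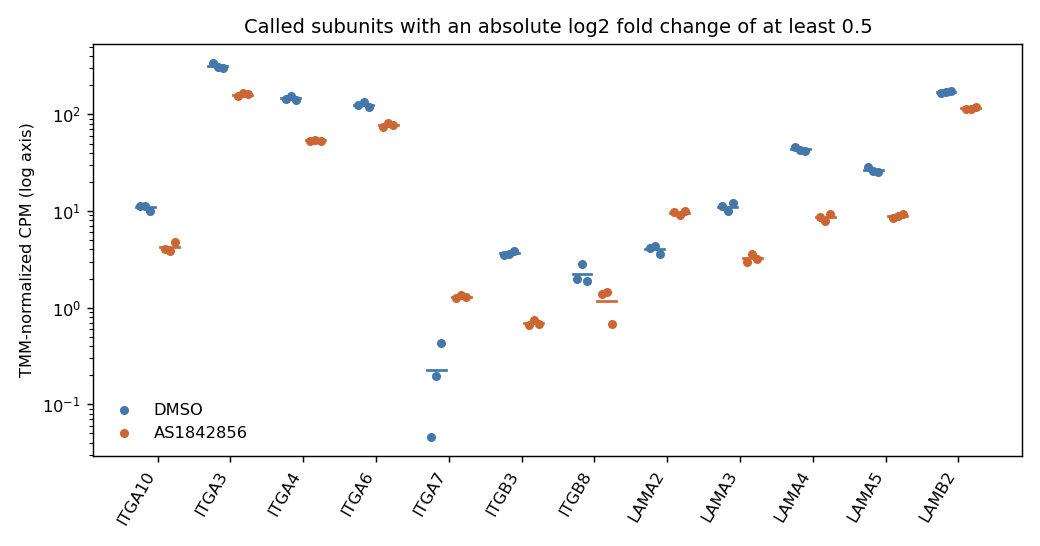
TMM-normalized CPM (log axis) of each library for 12 called subunits with an absolute log2 fold change of at least 0.5, in DMSO and AS1842856. Points are libraries and bars are group means, and the groups do not overlap for any of the subunits drawn. ITGA7 and LAMA2 are higher with AS1842856 and the others lower, and the DMSO points of ITGA7 rest on 1, 3 and 8 counts.

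Levels of different chains were set side by side only per length, as the deposited FPKM (fragments scaled by transcript length and library size), which listed 33 of the 38 subunits. In DMSO, summed laminin α chains were at 6.73 ± 0.306 FPKM (SD, n = 3), laminin β chains at 73.5 ± 1.09 and laminin γ chains at 65.4 ± 2.65. In AS1842856 the sums were 2.50 ± 0.103 for α, 70.1 ± 2.97 for β and 54.2 ± 1.58 for γ. The α sum with AS1842856 was 37.2% ± 2.29 of that with DMSO, the β sum 95.4% ± 4.27 and the γ sum 83.0% ± 4.14, where each error is an SD propagated from both groups. The ratio of β to α FPKM was 10.5, 11.2 and 11.1 in DMSO A, B and C and 27.2, 29.9 and 27.0 in AS1842856 A, B and C. No p-value is given for a sum or ratio over the family.

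The make-up of the α sum also differed between the groups. LAMA4 held 55.5% ± 0.537 of laminin α FPKM in DMSO (SD, n = 3) and 29.7% ± 1.31 in AS1842856. LAMA2 held 5.71% ± 0.571 in DMSO and 36.9% ± 0.961 in AS1842856, where it was the most abundant α chain per length. LAMA5 held 27.6% ± 0.675 and 24.7% ± 0.963, and LAMA3 11.2% ± 1.33 and 8.78% ± 1.06. LAMA2 itself was at 0.384 FPKM in DMSO and 0.923 FPKM in AS1842856, a smaller ratio than that between its shares. LAMB1 held 66.1% of the laminin β sum in DMSO and 75.7% in AS1842856.

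**Figure D3:**
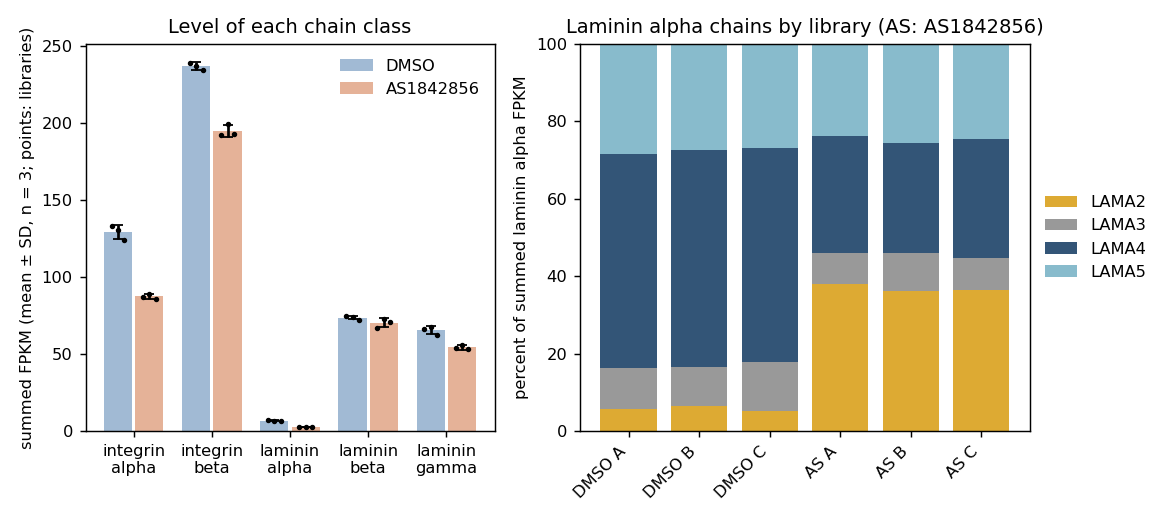
Left, summed FPKM of each chain class in DMSO and AS1842856 (bars, mean ± SD of 3 libraries; points, libraries). Right, the percent of summed laminin α FPKM that each α chain held in each library: the LAMA2 segment is between 5.23% and 6.35% in DMSO and between 36.1% and 37.9% in AS1842856.

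On the receptor side, the laminin-binding subunits are ITGA3, ITGA6 and ITGA7, which pair with ITGB1, and ITGB4, which pairs with ITGA6 in hemidesmosomes. ITGA3, ITGA6 and ITGB1 fell, ITGA7 rose, and ITGB4 was not called. ITGA3 had 343, 309 and 301 CPM with DMSO and 154, 165 and 161 CPM with AS1842856. It was 1.98-fold lower (-0.99 ± 0.04, edgeR adjusted p = 6.61e-61), with the groups well apart. ITGA6 had 124, 133 and 118 CPM with DMSO and 74.0, 82.0 and 77.1 CPM with AS1842856. The fall in ITGA6 was smaller, 1.60-fold (-0.68 ± 0.05, edgeR adjusted p = 9.85e-35).

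ITGA7 (chr12:55684568-55716043) is the laminin receptor α subunit of muscle. Its level was 0.0455, 0.195 and 0.431 CPM in DMSO A, B and C, from 1, 3 and 8 counts, and 1.26, 1.36 and 1.29 CPM in AS1842856 A, B and C, from 21, 31 and 23 counts. It was barely detected in the controls and low in treated cells, with no overlap. ITGA7 passed the filter on low counts only through its AS1842856 libraries, where it was higher. The log2 fold change was 2.56 ± 0.48 (edgeR adjusted p = 1.06e-06), and it ran from 1.99 without DMSO replicate A to 3.51 without DMSO replicate C. ITGA7 shares 7 exon bases with BLOC1S1 on the other strand, which had 854% as many counts and a log2 fold change of 0.34. ITGB4 had 0.729, 0.651 and 0.538 CPM with DMSO and 0.660, 0.219 and 0.112 CPM with AS1842856, and these overlapped (-1.01 ± 0.52, edgeR adjusted p = 0.0893). Without AS1842856 replicate A, ITGB4 was lower at -1.87 (edgeR adjusted p = 0.0155).

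ITGB1, the β subunit with the most α partners, had 1321, 1319.9 and 1302 CPM with DMSO and 1057, 1100.4 and 1067 CPM with AS1842856. It fell by 0.29 on the log2 scale (SE 0.03, edgeR adjusted p = 4.60e-16), and no treated library reached a control. Per length it was the most abundant of all 38 subunits in both groups, at 217 ± 1.74 FPKM in DMSO (SD, n = 3) and 178 ± 3.74 FPKM in AS1842856. It held 91.8% of the integrin β sum in DMSO and 91.3% in AS1842856.

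ITGA4 (chr2:181457202-181536187) fell most among the integrin α subunits together with ITGA10, and the difference between their log2 fold changes was within the SE of ITGA10. Its product pairs with ITGB1 or ITGB7 and binds VCAM1 and fibronectin, and it is found on leukocytes and on neural crest derivatives. ITGA4 had 146, 154 and 141 CPM with DMSO and 53.2, 54.8 and 53.7 CPM with AS1842856. The treated libraries were alike and far below the controls, 2.72-fold lower (-1.44 ± 0.05, edgeR adjusted p = 9.55e-85). Its share of integrin α FPKM was 14.3% ± 0.479 in DMSO and 7.77% ± 0.0839 in AS1842856.

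Because ITGA4 and several other subunits belong to leukocytes, platelets or endothelium, markers of those cells were read in the same libraries. The 7 leukocyte markers summed to 6.56, 6.25 and 4.90 CPM in DMSO and 13.9, 14.0 and 14.6 CPM in AS1842856, so they moved opposite to ITGA4. Their most abundant gene was CORO1A, at a mean of 7.25 CPM, PTPRC rose by 1.48 (edgeR adjusted p = 4.99e-07), and CD3E and NKG7 had no count. The 4 platelet markers summed to at most 1.04 CPM and the 5 endothelial markers to at most 1.86 CPM, with GP1BA and TEK the most abundant, and PPBP, GP9 and CDH5 had no count. Their part in the results was not tested. For the line itself, the mesenchymal genes VIM, CDH2, ZEB1 and FN1 were all expressed, VIM at 1266 to 1369.7 CPM in DMSO, while the epithelial genes CDH1 and EPCAM and the receptors ESR1 and PGR did not pass the filter. The receptor ERBB2 passed it, at 46.5, 49.0 and 44.8 CPM in DMSO, and fell by 0.90 (edgeR adjusted p = 2.92e-29).

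The subunits listed as binding ligands through the RGD peptide were ITGA5, ITGAV, ITGA8, ITGA2B, ITGB3, ITGB5, ITGB6 and ITGB8. ITGB1, which pairs with ITGA5, was not in that list and is described above. Of the 6 listed subunits that were tested, ITGAV, ITGB3, ITGB5 and ITGB8 fell, and ITGA5 and ITGA2B were not called. ITGB3 (chr17:47253846-47311816), which pairs with ITGAV as a vitronectin receptor, had 3.51, 3.58 and 3.82 CPM with DMSO and 0.660, 0.745 and 0.673 CPM with AS1842856. It was 5.18-fold lower (-2.37 ± 0.29, edgeR adjusted p = 7.32e-14), from 55 to 77 counts in the controls and 11 to 17 in the treated libraries. ITGB3 shares 51.57% of its exon bases with AC068234.1 on the same strand, which had 0 counts, so how reads were assigned between them is uncertain.

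ITGAV, the α subunit of all the vitronectin-type receptors, had 255, 258 and 243 CPM with DMSO and 218, 203 and 199.6 CPM with AS1842856. It fell by 0.29 (SE 0.04, edgeR adjusted p = 3.35e-12), with the groups separate. ITGB5, another partner of ITGAV, had 126, 119 and 111 CPM with DMSO and 104, 109.5 and 108 CPM with AS1842856. It fell by 0.14 (SE 0.04, edgeR adjusted p = 0.00256), and the nearest libraries of the groups were almost level. ITGB5 was not called without DMSO replicate A (-0.10, edgeR adjusted p = 0.0749). ITGB8, whose pair with ITGAV activates latent TGF-β, had 1.96, 2.86 and 1.88 CPM with DMSO and 1.38, 1.45 and 0.673 CPM with AS1842856. It fell by 0.90 (SE 0.30, edgeR adjusted p = 0.00649), and it was not called without DMSO replicate B (-0.71, edgeR adjusted p = 0.0722) or without AS1842856 replicate C (-0.64, edgeR adjusted p = 0.0817).

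ITGA5, which with ITGB1 forms the classical fibronectin receptor, had 172, 169.7 and 168 CPM with DMSO and 164, 176 and 164 CPM with AS1842856. The groups overlapped, at -0.01 ± 0.04 (edgeR adjusted p = 0.802). As other α subunits fell, ITGA5 went from 17.3% ± 0.442 to 25.2% ± 0.665 of integrin α FPKM (SD, n = 3), and ITGAV from 23.7% ± 0.349 to 28.7% ± 1.49, while ITGA3 went from 25.0% ± 1.17 to 18.6% ± 0.549. The integrin α sum with AS1842856 was 67.7% ± 2.67 of that with DMSO and the integrin β sum 82.2% ± 2.01.

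Of the collagen-binding α subunits, ITGA10, known from cartilage, had 11.4, 11.4 and 9.90 CPM with DMSO and 4.02, 3.85 and 4.77 CPM with AS1842856. It was 2.60-fold lower (-1.38 ± 0.14, edgeR adjusted p = 2.48e-18) with no overlap. ITGA2 had between 0.137 and 0.846 CPM in DMSO and between 0.336 and 0.920 CPM in AS1842856, and was not called (0.87 ± 0.51, edgeR adjusted p = 0.136). It became called without DMSO replicate B, at 1.91 (edgeR adjusted p = 0.0123). ITGA2B, the platelet fibrinogen receptor α subunit (-0.58 ± 0.40, edgeR adjusted p = 0.212), and ITGAE (-0.10 ± 0.07, edgeR adjusted p = 0.255) overlapped between the groups.

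In the order of levels per length in DMSO, ITGB1 was followed by LAMC1 at 63.4 FPKM, LAMB1 at 48.6, ITGA3 at 32.2, ITGAV at 30.5, LAMB2 at 24.8, ITGA5 at 22.3, ITGA6 at 19.0, ITGA4 at 18.5 and ITGB5 at 18.3 FPKM. The ranges of ITGA3 and ITGAV overlapped, as did those of ITGA6, ITGA4 and ITGB5. In AS1842856, LAMC1 at 53.8 FPKM and LAMB1 at 53.1 FPKM overlapped, ITGAV at 25.0 and ITGA5 at 22.0 stood next, and ITGA3 was at 16.3 FPKM, level within its range with ITGB5 at 16.5. Every laminin α chain was below 4 FPKM in both groups.

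The genes that surround these receptors and ligands were read from the same fit, from lists written for this purpose. Of 32 adaptors and kinases of the integrin tail, 29 were tested, 16 fell, 4 rose and 9 were not called, with a median log2 fold change of -0.18. The 69.0% called is to be set beside 56.0% of all genes tested (28.4% lower, 27.6% higher, median 0.00). The number that rose was 2 without DMSO replicate B and 6 without AS1842856 replicate A. LIMS2, a partner of integrin-linked kinase, had 5.28, 4.82 and 5.22 CPM with DMSO and 0.480, 0.394 and 0.617 CPM with AS1842856 (-3.37 ± 0.28, edgeR adjusted p = 5.06e-25). It passed the filter only through its DMSO libraries. Its homologue LIMS1 rose by 0.28 (edgeR adjusted p = 1.39e-07). TNS3, a tensin that binds β tails, fell from 216, 209 and 209 CPM to 66.5, 66.2 and 64.0 CPM (-1.69 ± 0.04, edgeR adjusted p = 1.70e-106). The docking protein BCAR1 rose by 0.37 (edgeR adjusted p = 9.09e-19). FERMT3, the kindlin of blood cells, was called at 0.74 ± 0.33 (edgeR adjusted p = 0.0454), with overlapping groups at 0.911 to 1.29 and 1.20 to 2.07 CPM, and lost the call without DMSO replicate A or B or AS1842856 replicate B or C (0.61 to 0.69, edgeR adjusted p from 0.0972 to 0.173). ILK had only 1.59 to 2.58 CPM in all 6 libraries and shares 68.1% of its exon bases with TAF10, so its counts are uncertain.

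Of 19 partners of laminin in the basement membrane, 17 were tested, 10 fell and 5 rose, with a median of -0.40, where 28.4% of all genes tested fell and 27.6% rose. NTN4, a netrin that binds laminin γ chains and disrupts the laminin network, had 47.6, 44.9 and 50.9 CPM with DMSO and 2.64, 3.11 and 3.03 CPM with AS1842856. It had the largest fall in these lists, -4.02 ± 0.11 (edgeR adjusted p = 2.82e-103). BCAM, a receptor for the laminin α5 chain, fell by 1.35 (edgeR adjusted p = 6.91e-10), and the syndecan SDC4 fell by 1.18 (edgeR adjusted p = 1.37e-65). The collagen IV genes COL4A1 and COL4A2, which form the other network of the sheet, fell by 0.72 and 0.59, and AGRN, a heparan sulfate proteoglycan, fell by 0.90.

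In the opposite direction, NID2, a nidogen that links laminin to collagen IV, had 0.911, 1.17 and 1.18 CPM with DMSO and 5.16, 5.08 and 4.82 CPM with AS1842856 (2.21 ± 0.24, edgeR adjusted p = 8.97e-17), while NID1 was not called (-0.10, edgeR adjusted p = 0.206). RTRAF, on the other strand, overlaps 30% of the exon bases of NID2 and had 3890% as many counts. RTRAF was called higher by 0.13 (edgeR adjusted p = 0.00451), from a mean of 114 CPM in DMSO to 125 CPM in AS1842856. How reads were assigned between NID2 and RTRAF is uncertain. COL7A1, the anchoring fibril collagen below the epidermis, went from 4.42, 4.10 and 3.44 CPM to 14.5, 16.0 and 20.5 CPM (2.08 ± 0.13, edgeR adjusted p = 1.84e-37). SDC1, a syndecan, went from 71.1, 70.4 and 70.8 CPM to 192, 202 and 193 CPM (1.47 ± 0.04, edgeR adjusted p = 3.54e-94).

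All 4 hemidesmosome partners were tested and 3 were called (56.0% of all genes tested). DST rose by 0.69 (edgeR adjusted p = 7.63e-36), PLEC fell by 0.31 (edgeR adjusted p = 2.71e-16), the tetraspanin CD151 fell by 0.36 (edgeR adjusted p = 1.37e-15) and COL17A1 was not called. CD151 shares 6.53% of its exon bases with POLR2L on the other strand, which had 61.7% as many counts. POLR2L fell by 0.37 (edgeR adjusted p = 1.26e-11), and how reads were assigned between them is uncertain. CD151 is also counted among the membrane partners that follow. All 11 membrane partners of integrins were tested and called, 7 higher and 4 lower, with a median of 0.11, against 27.6% higher and 28.4% lower among all genes tested. The groups overlapped for CD81 and BSG, both called higher. Without AS1842856 replicate B, 8 were called and 4 of them higher, and by DESeq2 9 were called and 5 of them higher. SLC3A2, the CD98 heavy chain, rose by 0.69 (edgeR adjusted p = 6.36e-50) and the tetraspanin CD9 fell by 1.17 (edgeR adjusted p = 1.73e-36).

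Of 22 other integrin ligands, 12 were tested, 8 fell and 3 rose, with a median of -0.75, and the shares over all genes tested were again 28.4% and 27.6%. THBS1, thrombospondin, had 881, 852 and 817 CPM with DMSO and 165, 155 and 163 CPM with AS1842856 (-2.40 ± 0.04, edgeR adjusted p = 2.87e-154). The matricellular proteins CYR61 and CTGF fell by 2.24 (edgeR adjusted p = 2.72e-121) and 2.41 (edgeR adjusted p = 4.57e-141). FN1, fibronectin, had 479, 455 and 415 CPM with DMSO and 958, 1001 and 985 CPM with AS1842856 (1.13 ± 0.03, edgeR adjusted p = 4.76e-69). TNC, tenascin-C, went from 95.6, 91.2 and 85.8 CPM to 316, 325 and 335 CPM (1.84 ± 0.04, edgeR adjusted p = 4.14e-120), and TGFB3, whose latent form binds ITGAV pairs through RGD, rose by 1.74 (edgeR adjusted p = 3.02e-35). Of the fibronectin receptor subunits, ITGAV, ITGA4 and ITGB1 fell, as given above, and ITGA5 was not called.

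**Figure D4:**
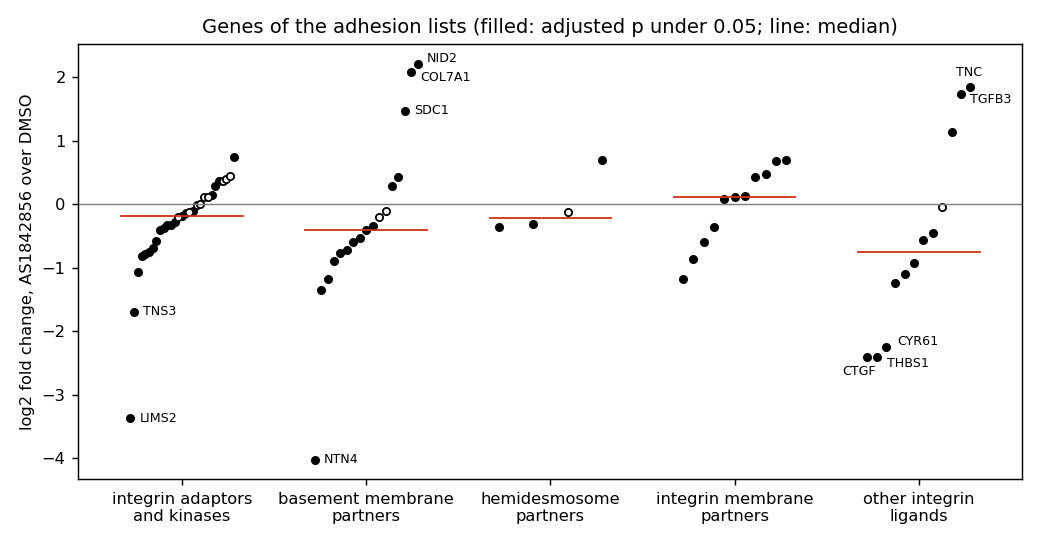
Log2 fold change (AS1842856 over DMSO, vertical axis) of every tested gene of 5 lists of integrin and laminin partners. Filled points have an edgeR adjusted p under 0.05, lines are list medians (-0.18, -0.40, -0.22, 0.11 and -0.75 from left to right), and the named genes with a log2 fold change of at least 1.4 in size are marked, from NTN4 at -4.02 to NID2 at 2.21.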

How the data were processed

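Total RNA from 3 DMSO and 3 AS1842856 cultures was sequenced by the authors, who deposited raw counts per gene, not normalized, and FPKM values for each library, scaled by gene length and library size. The study's methods name STAR, and the submitters' processing notes name CASAVA and Bowtie 0.12.2 with GRCh38; the counting tool and the use of strand are not given in the sources used here. Identifiers were those of GENCODE 29 (Ensembl 94), the source of symbols and positions. The counts were fitted with edgeR 4.0.16 (R 4.3.3): filterByExpr (minimum count 10, minimum total 15), TMM, glmQLFit (robust) and glmQLFTest, Benjamini-Hochberg threshold 0.05. The fit was also run on simulated counts in which only a small set of genes changed. Here 56.0% of genes tested were called, so that run does not speak to false calls when most genes change. The common biological coefficient of variation was 0.0374. Counting error only is covered by depth, since reads are not independent molecules.

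The members and lists were chosen with earlier results of these data known; the lists were written from general knowledge. Called members with an absolute log2 fold change of at least 0.5, and the 2 most abundant members per length of each chain class, were given in every library. Of other lists, the largest called changes among genes with at least 1 CPM were named, and COL4A1, COL4A2, AGRN, NID1, PLEC, COL17A1, CD81, BSG and ILK were added after their values were seen. Alternatives were DESeq2 1.42.0, its size factors, library totals, other filters, limma 3.58.1 on FPKM, each library left out and a replicate block. Protein sequences were not used here. Some genes that met the rule for naming, or belonged to a list, are not reported here, though the counts, medians and sums include them.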

Additional observations from a re-analysis of the deposited data

How the results depend on the processing

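Of the 24 tested subunits, 19 kept their call under every alternative that gave them a value. For LAMA3, ITGA7, ITGB3, ITGB8, ITGA2, ITGA2B, ITGB4 and LAMB3 the stricter filters on low values gave none, except that LAMA3 passed the filter on mean counts. ITGB5, ITGB8, LAMB1, ITGA2 and ITGB4 did not. In 337 comparisons of a subunit with an alternative, 322 kept direction and side of the threshold, 10 lost the call and 2 gained it. The sign turned in 3, all of subunits that were not called: ITGA5 ran from -0.05 to 0.00 and ITGAE from -0.17 to 0.02 when libraries were left out. Integrin subunits called were 10 of 15, and 6 by limma on log2(FPKM + 1) and 6 on log2(FPKM + 0.1) with a mean FPKM of at least 0.5. That filter left low genes untested, and ITGB5, which passed it, lost its call (-0.13, limma adjusted p = 0.0549, and -0.14, limma adjusted p = 0.0544). They ranged from 9 to 11 with a library left out. Laminin chains called were 8, and 7 to 8 with a library left out. A mean of at least 50 counts removed ITGA7, ITGB3 and ITGB8 among the called integrin subunits, which left 7 called. Without a filter ITGB2 was called (edgeR adjusted p = 0.0485). By DESeq2 ITGB8 was at -0.92 (DESeq2 adjusted p = 0.054) and not called; with limma on unfiltered log2(FPKM + 1), ITGB5 (-0.13), ITGB8 (-0.09) and LAMB1 (0.13) were not called. With a pseudocount of 1, changes of genes below 1 FPKM are understated. Genes called over the whole table numbered 8029, and between 6453 (limma, unfiltered) and 8030 (DESeq2 size factors in edgeR) otherwise.

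Over all genes tested, deviations of libraries with the same letter were hardly correlated (0.042, -0.012 and -0.003). With so few libraries a group, these values cannot settle whether the letters mark pairs. With the replicate block, 10 integrin subunits and 8 laminin chains were called and 7862 genes in all; of the named genes FERMT3 lost its call (0.70, edgeR adjusted p = 0.0659). FERMT3 was also not called by DESeq2 (0.73), without a filter (0.72) or by unfiltered limma (0.22).

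Low counts limit ITGA2, ITGA2B, ITGA7, ITGB3, ITGB4, ITGB8 and LAMB3, and the 14 subunits below the filter had few or no counts. Counts in bases shared with an overlapping gene could not be divided.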
